A study of Mus musculus with 6 samples.

Results

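The nuclear genes for the subunits of oxidative phosphorylation (OXPHOS) were examined in the transcriptome of splenic TCRb+CD4+CD44-CD127+ T cells. The genes were taken by symbol, as those starting with Nduf and one of the letters a, b, c, s or v before a digit, with Sdha to Sdhd, with Uqcr, with Cox and a digit from 4 to 8, or with Atp5, and having at least 10 reads in at least 2 libraries. Of 25239 genes listed in each library, 88 had such a symbol and 80 had enough reads. They comprised 37 Nduf genes (complex I), 4 Sdh genes (complex II), 8 Uqcr genes (complex III), 14 Cox genes (complex IV) and 17 Atp5 genes (complex V). All counts by complex go by symbol. They include the pseudogenes Ndufb4c and Ndufs5-ps in complex I and Cox7c-ps1 in complex IV. Ndufa4, which is now placed in complex IV, is counted in complex I. The cells were sorted by FACS from the spleens of C57BL/6 mice of 3 genotypes, Ikzf3+/+, Ikzf3+/N159S and Ikzf3N159S/N159S, with 2 libraries per genotype. Ikzf3 encodes Aiolos, a zinc finger transcription factor of lymphocytes, and the N159S allele was made by CRISPR-Cas9 editing of the germline, so that every cell of a mutant mouse carries it. Ages and sexes are not given in the sources used here. The study's methods count 2 mice for each mutant genotype and 2 or 4 for Ikzf3+/+ over its T and B cell samples, which matches 1 mouse a library, but no label ties a library to a mouse. The comparison asked how the mRNAs of this energy pathway compared between cells with no mutant allele and with mutant alleles in the heterozygous or homozygous state.

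The OXPHOS system lies in the inner mitochondrial membrane. Complexes I and II take electrons from NADH and succinate, complex III passes them by way of cytochrome c to complex IV, which reduces oxygen, and complex V (ATP synthase) uses the resulting proton gradient to make ATP. Complex II is encoded in the nucleus alone, while the other complexes each join nuclear subunits with a few encoded by mitochondrial DNA. Resting naive T cells rely largely on OXPHOS for their ATP and enlarge this machinery after activation. Of the 13 mitochondrially encoded subunits, 0 were among the symbols counted, so only the nuclear side of the system could be described.

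In the main fit, no OXPHOS gene passed the threshold of significance between genotypes, and most intervals were narrow. Counts were scaled by TMM and tested with edgeR's quasi-likelihood test over the 12117 genes that passed a filter on low counts, which included 79 of the 80 OXPHOS genes. With Benjamini-Hochberg adjustment over all genes tested and an FDR under 0.05, 0 of 79 OXPHOS genes were called in Ikzf3N159S/N159S against Ikzf3+/+ T cells, where 5.26% of all genes were called. The count was also 0 in Ikzf3+/N159S against Ikzf3+/+ T cells (1.75% of all genes), in Ikzf3N159S/N159S against Ikzf3+/N159S T cells (1.66%), and for Ikzf3+/N159S against the midpoint of the homozygous genotypes on the log2 scale (1.03%). DESeq2 called 0 OXPHOS genes in each of these comparisons as well, where it called 5.54%, 2.99%, 2.20% and 1.67% of all genes to which it gave an FDR (1 OXPHOS gene had none in the last 3). At an unadjusted p under 0.05, edgeR gave 3 OXPHOS genes in the first comparison (18.3% of all genes), 6 in the second (16.3%), 2 in the third (12.0%) and 4 off the midpoint (11.5%), which were shares of 3.80%, 7.59%, 2.53% and 5.06% of the 79 genes. DESeq2 gave 1, 5, 0 and 2 OXPHOS genes at an unadjusted p under 0.05 in the same order, against 14.6%, 12.7%, 8.71% and 8.11% of all genes. For 69 of 79 genes the 95% interval of the fold change between Ikzf3N159S/N159S and Ikzf3+/+ T cells lay within 1.5-fold in either direction. For 75 it lay within 2-fold. Of all 12117 genes tested, which had a lower median level, 7024 and 9210 had intervals within these bounds. In Ikzf3+/N159S against Ikzf3+/+ T cells the numbers were 67 and 75 of the 79 OXPHOS genes, and 7199 and 9415 of all genes. Such an interval bounds a difference and does not show that there was none, and the smallest p that an exact two-sided permutation test can reach for 1 gene in this design is 0.333. In bulk RNA, fewer cells of a type and less RNA per cell cannot be told apart.

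The sum of the 79 genes was near 0.6% of the reads counted on genes in every library. In CPM (reads on a gene scaled to a common library size with TMM), the sums of the Ikzf3+/+ libraries were 5864 and 5509. Those of the heterozygous libraries were 6152 and 6019, and those of the homozygous mutant libraries were 5937 and 5873. Both Ikzf3+/N159S libraries were above the other 4. The Ikzf3N159S/N159S libraries were above both Ikzf3+/+ libraries, but barely so for the closest 2, at 5873 and 5864 CPM. Means over the 2 libraries of a genotype were 5686 ± 251 CPM (SD) for Ikzf3+/+, 6086 ± 94.4 CPM for Ikzf3+/N159S and 5905 ± 45.4 CPM for Ikzf3N159S/N159S.

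Levels differed widely between subunits. Levels were divided by transcript length for a rough comparison between genes. For the 78 OXPHOS genes with a known length they ran from 0.900 CPM per kilobase for Cox6b2 to 305 for Atp5b. Atp5b encodes the catalytic beta subunit of ATP synthase. The median over the genes of a complex was 41.4 CPM per kilobase for complex I, 52.4 for complex II, 62.6 for complex III, 84.8 for complex IV and 105 for complex V. Within complex I the highest level was that of Ndufa6 (91.5 CPM per kilobase) and the lowest that of Ndufa12 (15.7), both accessory subunits. Sdha, the flavoprotein that oxidises succinate, had 92.0 CPM per kilobase, and Sdhc, a membrane anchor of the same complex, had 18.5. Uqcrh, the hinge protein of complex III, had 205 CPM per kilobase and Uqcrq had 29.5. In complex IV, Cox4i1 was at 305 CPM per kilobase. Atp5k, a small membrane subunit, was the lowest of complex V at 52.0. These lengths are those of 1 transcript per gene, and 12 of the 80 genes share at least 20% of their 75-base windows with transcripts of other genes, so that reads counted only where unique can understate them (Atp5g2, Atp5l, Atp5g1 and Cox7c most, with 86.9%, 63.4%, 59.6% and 50.4%). A further limit is that 21 genes overlap exons of a gene on the opposite strand, and no source states whether the counting used strand. The libraries were also selected for fragment size. Whether short transcripts are understated for this reason was not tested.

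**Figure D1:**
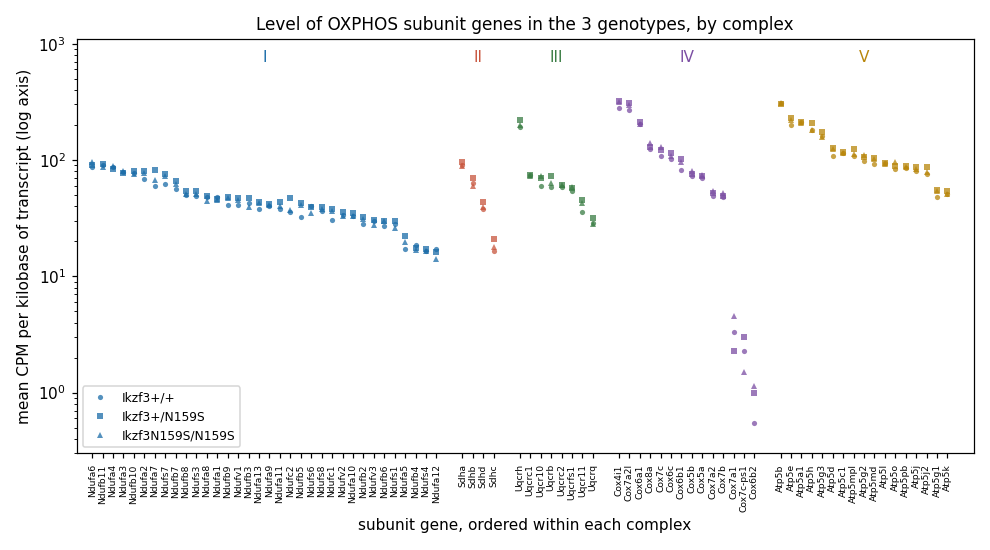
Mean CPM per kilobase of transcript (log axis) of 77 OXPHOS genes, ordered within complexes I to V, with 1 marker for each genotype (n = 2 libraries). The markers of a gene lie close together from 15.7 to 305 CPM per kilobase, and the 3 genes far below the rest, Cox7a1, Cox7c-ps1 and Cox6b2, have few reads and spread more.

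Where a subunit has several isoform genes, 1 gene usually held nearly all reads. Cox4i1 had 2622 to 3947 reads in a library and its lung isoform Cox4i2 had 0 to 3. Cox6a1 had 1344 to 2155 reads and the heart and muscle isoform Cox6a2 had 0 to 2. Cox7b had 554 to 875 reads and Cox7b2 had 0 to 3, and Cox8a had 791 to 1453 reads where Cox8b had 1 to 10 and Cox8c had 0 to 1. Cox6b2, the testis isoform beside Cox6b1 (652 to 1066 reads), had 4, 4, 10, 8, 13 and 7 reads and so lay just inside the minimum, while Cox8b, with 4, 2, 7, 10, 4 and 1 reads, lay just outside it. Cox7a1, the muscle isoform of Cox7a2, was detected at 13 to 28 reads beside 368 to 692 for Cox7a2. Cox7a2l, which is named for this family, was the most abundant of the 3, at 287 to 348 CPM and 292 CPM per kilobase. In complex I, Ndufa4, which is now placed in complex IV, had 680 to 878 reads and Ndufa4l2 had 0 to 3. The genes Atp5g1, Atp5g2 and Atp5g3 encode the same c subunit of the ATP synthase ring, and Atp5g3 was the highest per length (165 CPM per kilobase, against 105 for Atp5g2 and 52.5 for Atp5g1). Reads of Atp5g1 and Atp5g2 are shared with near-identical copies, so their order is uncertain.

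Besides these isoforms, 2 matching symbols were below the minimum. Ndufa11b had 1 to 7 reads. Ndufs5, a subunit of complex I with a gene on chromosome 4 (mm10, 123712710 to 123718202), was listed at 0 in all 6 libraries, while its pseudogene Ndufs5-ps had 9 to 20 reads. Ndufs5 shares 32.4% of its windows with another transcript, and Atp5l, which shares 63.4%, had 672 to 912 reads. Why Ndufs5 was at 0 in every library was not tested, and the 0 is not taken as a measure of its expression. The pseudogenes Ndufb4c (5 to 15 reads) and Cox7c-ps1 (6 to 29 reads) met the rule by their symbols and have the widest intervals of all.

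To show the regulatory sequence of such genes, promoter windows were read from RefSeq (GRCm38.p6, which is mm10), from 250 bases before to 50 after the annotated start. They covered 65 of the 80 genes with 70 windows. Sequences were searched on both strands for the motif of NRF1, a general activator of OXPHOS genes, for CCGGAAG, bound by ETS factors such as GABPA, for AANATGGCG, bound by YY1, and for TGGGAA, the core bound by Ikaros family members. The NRF1 motif was in 24.3% of the OXPHOS windows, against 10.3% of 12179 windows of genes tested and 4.6% of all 32851 windows. ETS letters were in 24.3% of OXPHOS windows and 18.2% of windows of genes tested, with 8.9% of all windows, and YY1 letters were in 14.3%, 5.1% and 2.4%. The Ikaros letters were in 21.4% of OXPHOS windows, 23.0% of those of genes tested and 25.6% of all windows. The windows of Sdha, Cox6b1 and Atp5b are printed because between them they hold each of the 4 motifs, in capitals, and belong to genes described here. The Sdha window (chr13:74350191-74350490, minus strand) holds 3 NRF1 matches, the Cox6b1 window (chr7:30626065-30626364, minus strand) 1 Ikaros match at its far end and 1 ETS match on the opposite strand, and the Atp5b window (chr10:128083057-128083356, plus strand) 1 Ikaros match and 1 YY1 match, both on the opposite strand. The matches do not overlap each other, and a match is not evidence of binding in these cells.
Sdha: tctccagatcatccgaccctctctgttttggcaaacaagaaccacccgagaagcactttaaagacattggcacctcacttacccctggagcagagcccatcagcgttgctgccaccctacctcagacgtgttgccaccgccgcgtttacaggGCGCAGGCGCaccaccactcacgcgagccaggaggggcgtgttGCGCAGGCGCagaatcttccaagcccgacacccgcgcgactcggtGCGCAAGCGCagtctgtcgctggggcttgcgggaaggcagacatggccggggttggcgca
Cox6b1: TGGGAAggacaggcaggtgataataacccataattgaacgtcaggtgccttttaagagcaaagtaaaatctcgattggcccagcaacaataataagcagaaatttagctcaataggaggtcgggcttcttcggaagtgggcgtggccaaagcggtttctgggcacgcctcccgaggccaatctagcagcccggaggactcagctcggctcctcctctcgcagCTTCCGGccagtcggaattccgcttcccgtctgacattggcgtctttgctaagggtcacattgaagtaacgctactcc
Atp5b: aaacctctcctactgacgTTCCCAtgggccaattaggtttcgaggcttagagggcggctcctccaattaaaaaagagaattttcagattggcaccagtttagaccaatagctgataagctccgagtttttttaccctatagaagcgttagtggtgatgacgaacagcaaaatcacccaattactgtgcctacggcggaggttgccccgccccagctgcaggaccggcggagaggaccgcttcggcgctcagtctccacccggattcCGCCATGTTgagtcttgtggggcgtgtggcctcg

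Complex I, the entry point for electrons from NADH, had a median log2 fold change of 0.04 in Ikzf3N159S/N159S and 0.11 in Ikzf3+/N159S T cells over Ikzf3+/+, with 26 and 29 of 37 genes above 0. The smallest p-values were those of Ndufb5 and Ndufa7, accessory subunits. Ndufb5 (chromosome 3, mm10) had 38.8 and 30.6 CPM in Ikzf3+/+, 44.7 and 47.9 CPM in Ikzf3+/N159S, and 46.2 and 42.8 CPM in Ikzf3N159S/N159S T cells. Its levels in both mutant genotypes lay above both Ikzf3+/+ libraries. The log2 fold change was 0.37 (standard error, SE, 0.13, FDR = 0.154) for Ikzf3N159S/N159S and 0.42 (SE 0.13, FDR = 0.138) for Ikzf3+/N159S, and the exons of Mrpl47 overlap 12.3% of its exon bases on the opposite strand. Ndufa7 (chromosome 17) had 34.7 and 28.4 CPM in Ikzf3+/+, 42.5 and 44.3 CPM in Ikzf3+/N159S, and 36.4 and 35.1 CPM in Ikzf3N159S/N159S T cells. The heterozygous libraries were the highest pair, and the Ikzf3N159S/N159S pair lay between. Its log2 fold change was 0.47 (SE 0.12, FDR = 0.0889) in Ikzf3+/N159S and 0.19 (FDR = 0.484) in Ikzf3N159S/N159S T cells, its difference between the mutant genotypes was -0.28 (FDR = 0.389), and its distance from the midpoint was 0.37 (SE 0.10, FDR = 0.157).

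In the main fit, the core subunits of complex I described here, which carry the flavin and iron-sulphur clusters, did not pass the test in any comparison. Ndufs1, the large iron-sulphur subunit, had 75.3 and 74.1 CPM in Ikzf3+/+, 76.0 and 81.6 CPM in Ikzf3+/N159S, and 66.8 and 72.8 CPM in Ikzf3N159S/N159S T cells, where its log2 fold change was -0.10 (95% interval -0.32 to 0.12). Ndufv1, which binds NADH, had 65.3 and 70.4 CPM in Ikzf3+/+ and between 74.1 and 78.4 CPM in the 4 mutant libraries. Its log2 fold change was 0.16 in Ikzf3N159S/N159S (FDR = 0.432) and 0.20 in Ikzf3+/N159S T cells (FDR = 0.338), so a difference without overlap in 2 against 2 libraries was not significant over all genes. Ndufs7, another iron-sulphur subunit, had 47.7 and 45.6 CPM in Ikzf3+/+ and 53.7 to 60.1 CPM in mutant libraries, with a log2 fold change of 0.25 (FDR = 0.254) in Ikzf3N159S/N159S and 0.29 (FDR = 0.217) in Ikzf3+/N159S T cells. Ndufs7 was picked after its values were seen.

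In complex II, succinate dehydrogenase, all 4 genes had a log2 fold change above 0 in Ikzf3+/N159S over Ikzf3+/+ T cells, with a median of 0.16, and the median in Ikzf3N159S/N159S T cells was 0.02. The summed level was 449 and 418 CPM in Ikzf3+/+, 476 and 479 CPM in Ikzf3+/N159S, and 429 and 439.5 CPM in Ikzf3N159S/N159S T cells. All 4 genes had both Ikzf3N159S/N159S libraries below both Ikzf3+/N159S libraries, as did 21.6% of all genes tested, with a median log2 difference of -0.17 in complex II. Of the 4, 3 had both Ikzf3+/N159S libraries above both Ikzf3+/+ libraries, as did 25.0% of all genes. Sdhc, a membrane anchor, had 56.4 and 48.5 CPM in Ikzf3+/+, 64.7 and 67.6 CPM in Ikzf3+/N159S, and 54.8 and 59.4 CPM in Ikzf3N159S/N159S T cells. For the heterozygotes its log2 fold change was 0.34 (SE 0.11, FDR = 0.160), and its distance from the midpoint was 0.28 (FDR = 0.289). For Sdha the libraries ran from 256 to 283 CPM, and its log2 fold change in Ikzf3N159S/N159S T cells was -0.01 (95% interval -0.20 to 0.19). Sdhb, the iron-sulphur subunit, had 81.0 and 64.6 CPM in Ikzf3+/+ and 70.1 and 67.5 CPM in Ikzf3N159S/N159S T cells, so the Ikzf3+/+ libraries lay on both sides.

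Complex III, ubiquinol-cytochrome c reductase, had medians of 0.09 in Ikzf3N159S/N159S and 0.16 in Ikzf3+/N159S T cells over Ikzf3+/+ (log2). Its Rieske protein Uqcrfs1 ranged from 70.2 to 81.2 CPM and its core protein Uqcrc1 from 116 to 128 CPM. In Ikzf3N159S/N159S T cells Uqcrfs1 had a log2 fold change of 0.12 (95% interval -0.11 to 0.34) and Uqcrc1 of -0.03 (95% interval -0.24 to 0.18). The smallest p-values were those of Uqcr10 and Uqcrb, 2 small subunits of the complex. Uqcr10 had 26.8 and 24.6 CPM in Ikzf3+/+, 31.7 and 29.3 CPM in Ikzf3+/N159S, and 29.4 and 33.8 CPM in Ikzf3N159S/N159S T cells, all mutant libraries above both Ikzf3+/+ libraries. For the homozygous mutant its log2 fold change was 0.30 (SE 0.13, FDR = 0.251). Uqcrb had 32.4 and 30.05 CPM in Ikzf3+/+, 39.0 and 38.5 CPM in Ikzf3+/N159S, and 31.7 and 36.7 CPM in Ikzf3N159S/N159S T cells, with a log2 fold change of 0.31 (SE 0.12, FDR = 0.225) in Ikzf3+/N159S T cells. Uqcrb shares 29.1% of its windows with other transcripts.

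Complex IV, cytochrome c oxidase, was the complex in which the homozygous cells had the highest median, 0.15 over Ikzf3+/+ (log2), with 9 of its 13 genes tested having both Ikzf3N159S/N159S libraries above both Ikzf3+/+ libraries, as did 24.3% of all genes. The median in Ikzf3+/N159S T cells was 0.09, with 6 of 13 above, as were 25.0% of all genes. Its summed level was 1065 and 999.9 CPM in Ikzf3+/+, 1162 and 1126 CPM in Ikzf3+/N159S, and 1167 and 1121 CPM in Ikzf3N159S/N159S T cells. Cox7c, a small subunit, had 65.0 and 53.0 CPM in Ikzf3+/+, 60.6 and 71.7 CPM in Ikzf3+/N159S, and 69.7 and 71.1 CPM in Ikzf3N159S/N159S T cells, with a log2 fold change in the homozygous mutant of 0.26 (SE 0.13, FDR = 0.306). Cox6b1, which faces the intermembrane space, had 55.9 and 45.8 CPM in Ikzf3+/+, 62.9 and 62.0 CPM in Ikzf3+/N159S, and 59.0 and 59.7 CPM in Ikzf3N159S/N159S T cells. The mutant libraries were all above the Ikzf3+/+ libraries, with a log2 fold change of 0.30 (SE 0.12, FDR = 0.225) in Ikzf3+/N159S T cells. Cox4i1 had 225 and 192 CPM in Ikzf3+/+, 226 and 248 CPM in Ikzf3+/N159S and 229 and 241 CPM in Ikzf3N159S/N159S T cells (log2 fold change 0.18, FDR = 0.427, in the homozygous cells). Cox5a was between 41.7 and 52.1 CPM with the genotypes overlapping. Cox7a1 had the largest difference between mutant genotypes, 1.63 and 1.98 CPM in Ikzf3N159S/N159S against 0.943 and 0.836 CPM in Ikzf3+/N159S T cells (log2 0.99, SE 0.42, FDR = 0.368), on 13 to 28 reads in each library.

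For complex V, the ATP synthase, the median log2 fold change was 0.05 in Ikzf3N159S/N159S and 0.11 in Ikzf3+/N159S T cells. Its summed level was between 2205 and 2361 CPM in all 6 libraries. In the catalytic part, the levels were even, with Atp5a1, the alpha subunit, between 509 and 529.7 CPM, and Atp5b between 542 and 613 CPM. Over the 6 libraries Atp5a1 spanned 0.056 on the log2 scale, the lowest of the 79 genes, and its log2 fold change in Ikzf3N159S/N159S T cells was -0.03 (95% interval -0.22 to 0.17), with -0.01 (95% interval -0.23 to 0.22) for Atp5b. Atp5d, the delta subunit of the same catalytic part, had the smallest p-value of complex V in both comparisons with Ikzf3+/+, with 106 and 97.0 CPM in Ikzf3+/+, 112 and 122 CPM in Ikzf3+/N159S, and 117 and 113 CPM in Ikzf3N159S/N159S T cells. Its log2 fold change was 0.18 (SE 0.10, FDR = 0.363) in Ikzf3N159S/N159S and 0.21 (FDR = 0.323) in Ikzf3+/N159S T cells. Of the 3 c subunit genes Atp5g2 spanned the most, with 66.4 and 77.3 CPM in Ikzf3+/+, 99.8 and 54.8 CPM in Ikzf3+/N159S, and 92.8 and 69.8 CPM in Ikzf3N159S/N159S T cells, so the replicates of a mutant genotype lay on both sides of an Ikzf3+/+ library.

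**Figure D2:**
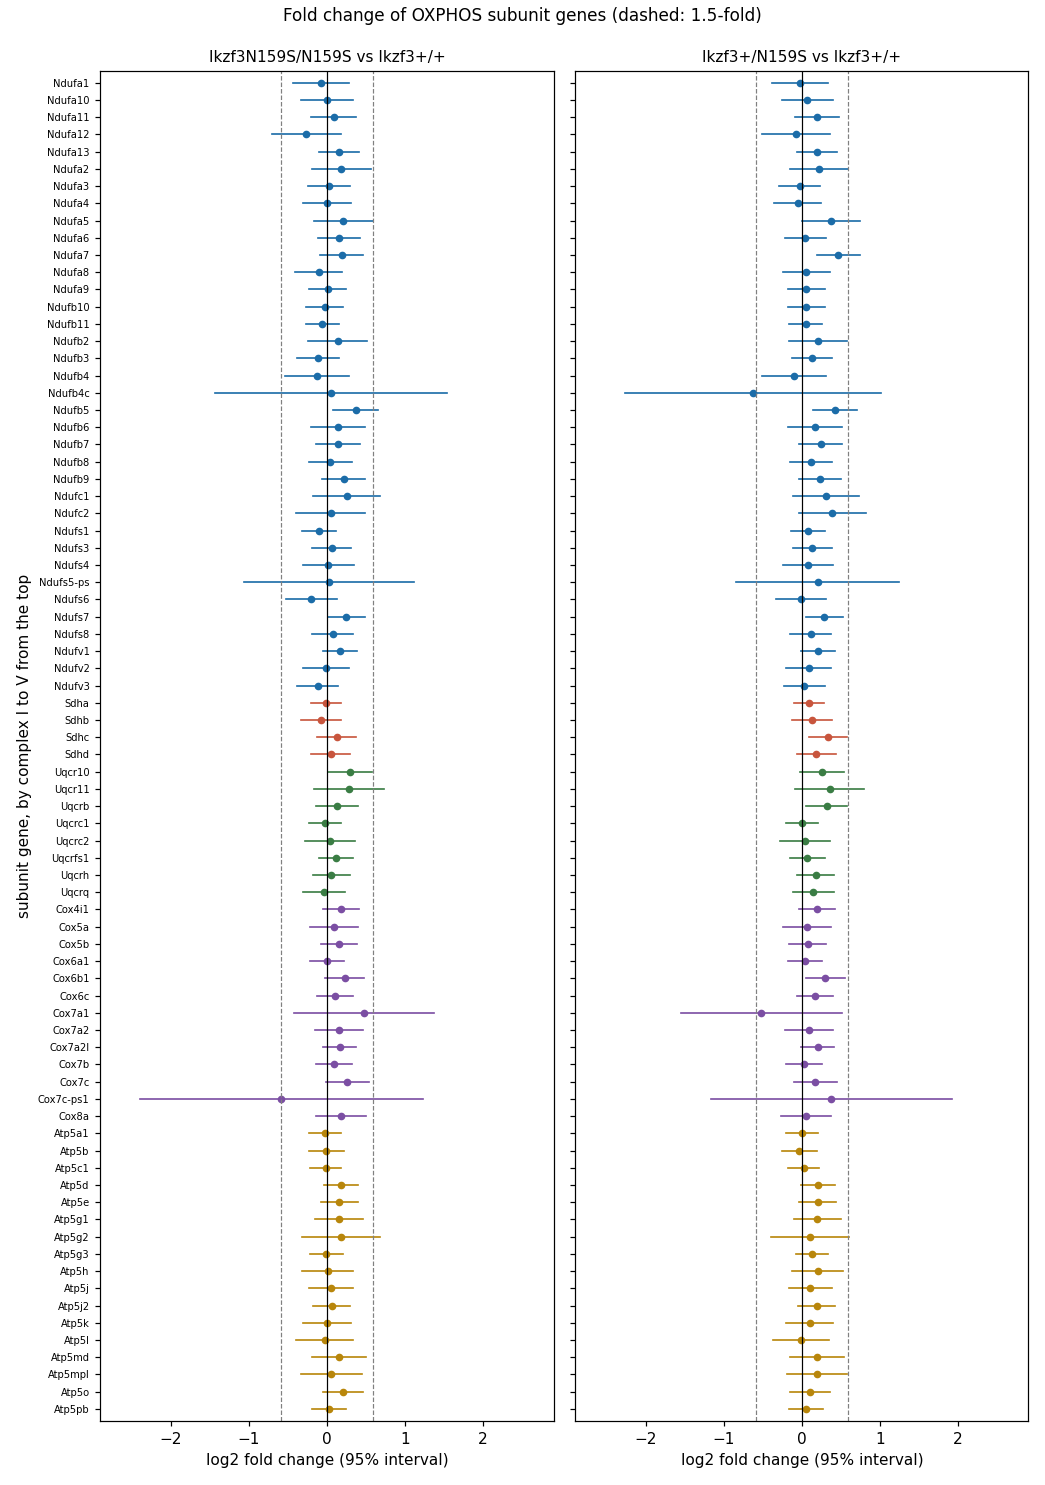
Log2 fold changes over Ikzf3+/+ (points) with 95% intervals (lines) of 78 of the 79 OXPHOS genes tested, in Ikzf3N159S/N159S (left) and Ikzf3+/N159S T cells (right), coloured by complex. Most intervals lie within the dashed lines at 1.5-fold, and more points lie to the right of 0 than to the left. Over all 79 genes, 57 were above 0 and 22 below in the first comparison, and 67 and 12 in the second.

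Small differences had the same sign in many of the genes, and 1 library stood apart from the rest. In Ikzf3N159S/N159S T cells 22 of 79 OXPHOS genes had both libraries above both Ikzf3+/+ libraries (27.8%, against 24.3% of all genes tested) and 4 had both below (5.06%, against 23.9%). In Ikzf3+/N159S T cells these numbers were 31 (39.2%, against 25.0%) and 1 (1.27%, against 22.1%). Between the mutant genotypes, 2 genes had both Ikzf3N159S/N159S libraries above both Ikzf3+/N159S libraries (2.53%, against 19.5%) and 19 had both below (24.1%, against 21.6%). The first 2 comparisons share the Ikzf3+/+ libraries. The median log2 fold change of the OXPHOS genes was 0.06 in Ikzf3N159S/N159S and 0.12 in Ikzf3+/N159S T cells over Ikzf3+/+, and -0.05 between the mutant genotypes, where the medians of all genes tested were 4e-04, 0.01 and -0.01. Ikzf3+/+ replicate 2 had the lowest level of the 6 libraries in 40 of 79 OXPHOS genes (50.6%, against 18.1% of all genes), and its median deviation from a gene's mean over the libraries was -0.14 on the log2 scale, where the other 5 libraries had between 0.01 and 0.07. Without this library the median in Ikzf3N159S/N159S T cells was 0.02, that of complex I was -0.04 and that of complex V was -0.02, while the median in Ikzf3+/N159S T cells was 0.07. Without Ikzf3+/+ replicate 1 they were 0.15 and 0.17 for all OXPHOS genes. Over the 6 libraries a gene's log2 CPM had a median range of 0.372 for the OXPHOS genes and 0.461 for all genes tested, with a median CPM of 51.8 and 28.5.

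**Figure D3:**
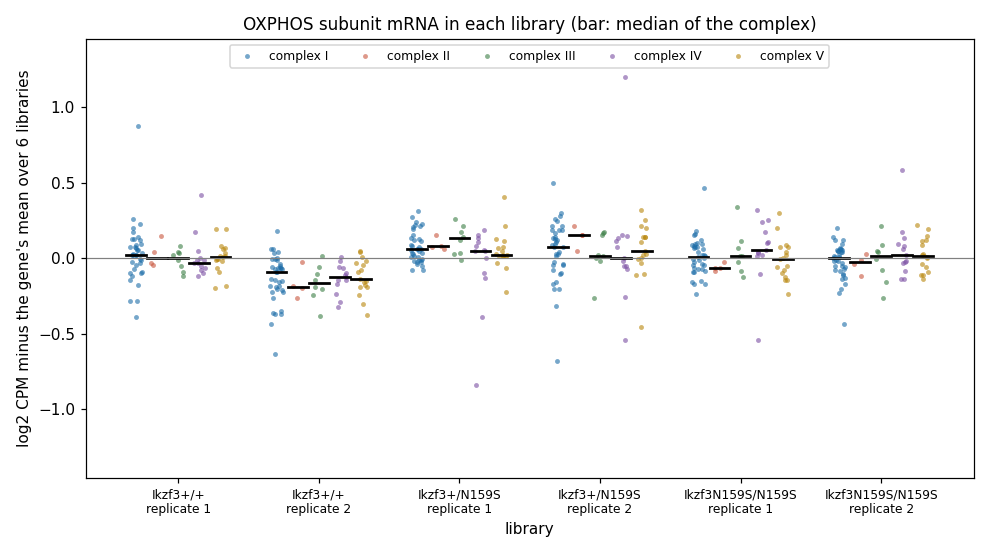
Log2 CPM of each of 79 OXPHOS genes minus the gene's mean over the 6 libraries, by library, with a bar at the median of each complex. The bars of Ikzf3+/+ replicate 2 are below 0 in all 5 complexes (-0.09 to -0.19), and those of Ikzf3+/N159S replicates 1 and 2 are above 0.

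Other features of the libraries moved beside these values, and their part in them was not tested. The libraries had 11696461 to 17317260 reads on genes and 14803 to 18147 genes with a read. Naive CD4 T cell markers were present in all libraries, with 10 of 10 detected. They summed to 6805 and 6546 CPM in Ikzf3+/+ and to 5723 to 6060 CPM in the 4 mutant libraries, and Cd5 and Lef1 fell in Ikzf3N159S/N159S T cells (log2 fold changes -0.86, FDR = 0.00106, and -0.60, FDR = 0.0391) and Il7r in Ikzf3+/N159S T cells (-0.49, FDR = 0.0368). The 10 markers of B cells, all above 0 in every library, summed to 158 and 236 CPM in Ikzf3+/+, 370 and 615 CPM in Ikzf3+/N159S and 153 and 104 CPM in Ikzf3N159S/N159S T cells. The heterozygous libraries, with the highest OXPHOS sums, thus also had the highest sums of B cell markers, of which Cd74 gave 190 and 325 CPM. Over Ikzf3+/+, 9 of the 10 were higher in the heterozygotes and 1, Fcer2a, was lower (log2 fold change -2.77, FDR = 0.00594). Markers of myeloid cells summed to 57.1 to 82.4 CPM and those of erythroid cells to 0.772 to 9.38 CPM. Those of CD8 and NK cells summed to 49.9 and 63.0 CPM in Ikzf3+/+, 53.4 and 44.6 CPM in Ikzf3+/N159S, and 39.0 and 34.1 CPM in Ikzf3N159S/N159S T cells. In Ikzf3N159S/N159S over Ikzf3+/+ T cells, 6 of the 7 tested were lower and 1 was higher. Cd8b1 fell (log2 fold change -2.63, FDR = 0.000502) and Gzma rose (2.64, FDR = 0.0433). Effector and activation markers went in both directions. Their 10 genes summed to 438 and 417 CPM in Ikzf3+/+, 338 and 348 CPM in Ikzf3+/N159S and 397 and 504 CPM in Ikzf3N159S/N159S T cells, so the heterozygous sums were the lowest. The 8 tested had a median deviation from a gene's mean (log2) of 0.45 and 0.54 in the heterozygous libraries. It was 0.06 and 0.03 in Ikzf3+/+ and -0.42 and -0.32 in Ikzf3N159S/N159S T cells. Of these 8, 5 were higher and 3 lower in the heterozygotes than the midpoint. Off the midpoint, the chemokine receptor Cxcr3 (log2 2.38, FDR = 0.0041), Foxp3 of regulatory T cells (1.41, FDR = 0.0324) and the IL-2 receptor chain Il2ra (1.06, FDR = 0.0179) were higher in the heterozygotes, and the early activation marker Cd69 was lower (-0.62, FDR = 0.0183). Xist was at 730.1 and 824 CPM in the heterozygous libraries and at 0.772 to 1.98 CPM in the others, so sex and the heterozygous genotype cannot be told apart. Among the X-linked members, Ndufa1 (16.8 to 22.2 CPM) and Cox7b (47.2 to 52.5 CPM) overlapped between these libraries and the others. Ndufb11 was at 86.0 and 83.4 CPM in the heterozygous libraries and at 75.9 to 83.1 CPM in the others, so both lay above the other 4 by a small margin. Within each genotype 1 library had more genes detected, Ikzf3+/+ replicate 1, Ikzf3+/N159S replicate 2 and Ikzf3N159S/N159S replicate 2. With this split as a term in the fit, the OXPHOS genes called at FDR under 0.05 were 2 in Ikzf3N159S/N159S T cells (Ndufb5, FDR = 0.0206, and Cox7c, FDR = 0.0474), 6 in Ikzf3+/N159S T cells and 3 off the midpoint, all higher, where 14.5%, 11.7% and 6.08% of all genes were called. Between the mutant genotypes it called 0, against 7.24% of all genes. The 6 were Ndufa7 (FDR = 0.00535), Ndufb5 (FDR = 0.0112), Sdhc (FDR = 0.0128), Ndufc2 (FDR = 0.0353), Cox6b1 (FDR = 0.0365) and Ndufs7 (FDR = 0.046), and those off the midpoint were Ndufa7, Sdhc and Ndufc2. The split itself was set from these same counts and was used after earlier results of these libraries were known. Such a term takes up part of the spread within genotypes, so its FDRs can be too low. Over all genes the calls rose from 637 to 1756 in Ikzf3N159S/N159S and from 212 to 1422 in Ikzf3+/N159S T cells.

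Genes that build or serve the OXPHOS system were described by lists, whose medians ran from -0.12 to 0.16 on the log2 scale. For the counts below, 5.26% of all genes tested were called at FDR under 0.05 in Ikzf3N159S/N159S and 1.75% in Ikzf3+/N159S T cells over Ikzf3+/+. The 48 assembly factors tested had medians of 0.06 in Ikzf3N159S/N159S and 0.16 in Ikzf3+/N159S T cells (log2). At FDR under 0.05, 1 was higher and 0 lower in the first, and 0 were called in the second. In the second, edgeR gave 10 of the 48 at an unadjusted p under 0.05, where it gave 16.3% of all genes. The assembly factor called was Sdhaf1, of complex II, with a log2 fold change of 0.68 (FDR = 0.0145). Among 18 genes for electron carriers and exchange, 1 rose, Slc25a4, an exchanger of ADP and ATP (log2 fold change 0.53, FDR = 0.0226, in Ikzf3N159S/N159S T cells). Of 78 mitochondrial ribosomal protein genes, Mrpl52 rose in both comparisons, by 0.77 (FDR = 0.00812) and 0.76 (FDR = 0.0214) on the log2 scale, and the medians were 0.07 and 0.11. The 20 genes of the citric acid cycle and pyruvate dehydrogenase had medians of 0.01 and 0.03. Of these, edgeR called 0, with 0 at an unadjusted p under 0.05 in Ikzf3N159S/N159S (18.3% of all genes) and 1 in Ikzf3+/N159S T cells (16.3%). Of 15 regulators of mitochondrial biogenesis tested, Myc, a growth regulator, rose in Ikzf3N159S/N159S T cells (log2 fold change 0.44, FDR = 0.0182), and the medians of the list were -0.12 and -0.02. The cytosolic ribosomal protein genes lay further from 0, with a median of 0.26 in Ikzf3N159S/N159S T cells and 71 of 79 having both libraries above both Ikzf3+/+ libraries, as did 24.3% of all genes. At FDR under 0.05, 5 of the 79 rose, among them Rps27a (log2 fold change 0.47, FDR = 0.0273), Rps29 (0.44, FDR = 0.0287) and Rpl37rt (0.41, FDR = 0.0356), where 5.26% of all genes were called in either direction. The difference between the lists was not tested.

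**Figure D4:**
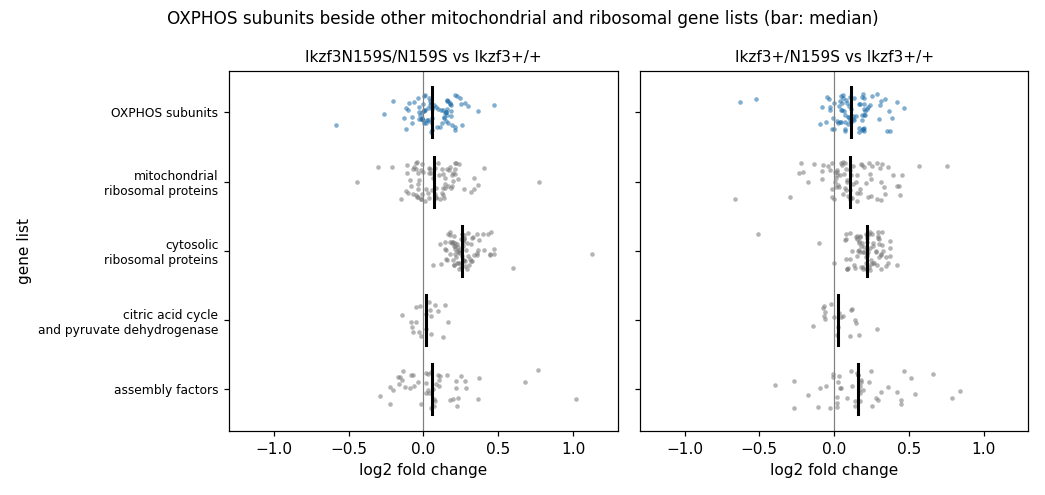
Log2 fold changes over Ikzf3+/+ of the genes of 5 lists in Ikzf3N159S/N159S (left) and Ikzf3+/N159S T cells (right), 1 point per gene, with a bar at the median. The bar of the OXPHOS genes is at 0.06 and 0.12, close to that of the mitochondrial ribosomal proteins (0.07 and 0.11), and that of the cytosolic ribosomal proteins is at 0.26 and 0.22.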

How the data were processed

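RNA was extracted from the sorted T cells with Trizol, selected for poly(A), made into libraries with a kit that does not mark strand and sequenced on a HiSeqX. The authors trimmed reads with Trimmomatic 0.38.1, aligned them to mm10 with HISAT2 2.2.1 and assigned them to refGene genes with HTSeq 2.0.2 (versions from the submitters' processing notes and the study's methods), and deposited raw read counts per gene. Entries that HTSeq assigned to no gene (42.3 to 49.3% of a library) were left out. The strand setting of the counting and the read length are not given in the sources used here.

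The tests used edgeR 4.0.16 under R 4.3.3, with filterByExpr on genotype (minimum count 10, minimum total 15), TMM, 1 coefficient per genotype over 6 libraries, quasi-likelihood tests and Benjamini-Hochberg adjustment over 12117 genes. Log2 values used a prior count of 2. The steps were tested on simulated data. Transcript lengths and overlaps came from GENCODE M21 (mm10), with 1 principal transcript per gene. Named genes were the smallest p per complex in each comparison with Ikzf3+/+, core subunits, the highest and lowest level of a complex, isoform pairs, genes at the read minimum, and up to 3 called genes per list. Ndufs7, Ndufc2, the X-linked genes and the genes called with the split term were named after their values were seen. So were the naive, CD8 and NK, effector and activation markers. The values of 1 OXPHOS gene are not reported here. The genes and lists were chosen with earlier results of these data known. Alternatives were DESeq2 1.42.0, other scalings and filters, the earlier quasi-likelihood test, fits of 2 genotypes, replicate and detection terms, and each library left out.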

Additional observations from a re-analysis of the deposited data

How the results depend on the processing

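In all, 886 values were recomputed, of which 841 kept their direction and side of the threshold or moved by less than the spread. With the split by genes detected, a term set from the same counts, 2 OXPHOS genes were called in Ikzf3N159S/N159S T cells, 6 in Ikzf3+/N159S T cells and 3 off the midpoint. With no filter on low counts 1 was called in Ikzf3+/N159S T cells, Ndufa7 (FDR = 0.0428). All other alternatives, each library left out included, called 0. When single libraries were left out, the median log2 fold change over Ikzf3+/+ in Ikzf3N159S/N159S T cells was 0.0163 to 0.147 over all OXPHOS genes, -0.0363 to 0.132 for complex I, -0.0357 to 0.13 for complex II, 0.0409 to 0.178 for complex III, 0.11 to 0.227 for complex IV and -0.0223 to 0.134 for complex V. In Ikzf3+/N159S T cells it was 0.033 to 0.167 for complex I, 0.0829 to 0.30 for complex II, 0.0737 to 0.262 for complex III and 0.065 to 0.158 for complex IV. Between the mutant genotypes complex IV was at -0.028 to 0.0414, and off the midpoint complex I was at 0.0447 to 0.137. The reversals in single genes were all of Ikzf3N159S/N159S over Ikzf3+/+. With upper quartile factors, library totals only and no filter, Sdha was at 0.0123, 7e-04 and 0.0049 and Atp5b at 0.0121, 1e-04 and 0.0048. With a library left out, Sdha was at -0.0226 to 0.0154, Uqcrc1 at -0.0958 to 0.0433, Atp5a1 at -0.0478 to 0.0067 and Atp5b at -0.0772 to 0.0655. The causes were not tested.

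Same-numbered libraries of different genotypes had deviations correlated at -0.167, -0.216 and 0.238 over all genes and at -0.176, -0.205 and 0.541 over the OXPHOS genes. The last value of each is that of the mutant genotypes, and as 2 of the 3 were below 0 the numbers were not taken to pair the libraries. With the replicate block 0 OXPHOS genes were called in each comparison, and 514, 170, 168 and 120 of all genes were, where the fit without it gave 637, 212, 201 and 125. With 2 libraries per genotype, intervals within 1.5-fold bound the differences of 69 and 67 of 79 OXPHOS genes over Ikzf3+/+, and Cox7a1, Cox7c-ps1, Ndufb4c and Ndufs5-ps, on under 30 reads a library, have intervals that reach beyond 2-fold. A fit with 1 library of a genotype assumes that it varies like the others.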

Other observations

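Apart from genotype, 11 of 79 OXPHOS genes differed at FDR under 0.05 between the libraries in which more genes and in which fewer genes were detected. Of the 79, 7 were higher and 4 lower, where 536 and 425 of the 12117 genes tested were. The higher ones were Ndufc2 (log2 difference 0.42, FDR = 0.00704), Ndufa2 (0.36, FDR = 0.00648), Atp5l (0.36, FDR = 0.0047), Atp5mpl (0.35, FDR = 0.012), Atp5h (0.33, FDR = 0.00191), Atp5md (0.28, FDR = 0.0447) and Cox5a (0.25, FDR = 0.0401). The lower ones were Atp5g2 (-0.50, FDR = 0.000892), Ndufa10 (-0.29, FDR = 0.0153), Uqcrc2 (-0.26, FDR = 0.0275) and Cox8a (-0.25, FDR = 0.0452). The libraries compared are 3 against 3, 1 of each genotype on either side, in edgeR's quasi-likelihood test. They were divided by the data and not by a label, so these FDRs can be too low. Atp5l, Atp5h, Atp5md and Atp5g2 share at least 20% of their 75-base windows with transcripts of other genes.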
